A study of Mus musculus with 8 samples.

Results

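The genes described here are 10 members of the alpha and beta tubulin families of the mouse: the alpha genes Tuba1a, Tuba1b, Tuba1c and Tuba4a and the beta genes Tubb2a, Tubb2b, Tubb3, Tubb4b, Tubb5 and Tubb6. They were taken by gene name from a deposited count table of 55359 genes, and all 10 were found. They were selected with the difference between mast cell lines and primary mast cells in these same libraries already known. Their levels in that comparison are therefore a description, without a test for the members.

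The RNA came from mast cells of the peritoneum (PMCs), untreated and genetically wild-type, of mice on a mixed C57BL/6x129/Sv background, and their age is not given in the sources used here. Of the 8 libraries, 6 came from primary PMC cultures, 3 from females and 3 from males. The other 2 came from PMC-303 and PMC-306, permanent lines that arose spontaneously from such cultures, with 1 library each. Both lines have lost Cdkn2a and Arf expression. PMC-306 has a male karyotype with a heterozygous chromosome 4 deletion, and part of its cells carry a translocation between chromosomes Y and 17. Part of the PMC-303 cells carry an additional chromosome 8. Among the members, Tubb5 lies on chromosome 17 and Tubb3 on chromosome 8, and a part of these changes in their levels was not tested. Both lines were grown with less serum and less stem cell factor than the primary cultures, so medium and line cannot be told apart. The libraries held 15918758 to 24180226 counts. In these bulk libraries, fewer cells of a type and less RNA per cell cannot be told apart.

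Microtubules are hollow polymers of alpha and beta tubulin dimers that carry organelles and granules through the cell and build the mitotic spindle. Mammals have several genes for each subunit, called isotypes, whose proteins differ mainly in the acidic tail at the carboxy terminus, where motors and tubulin-modifying enzymes bind. In mast cells, microtubules carry secretory granules towards the plasma membrane on stimulation. Cells also adjust tubulin mRNA to the amount of free dimer: the factor TTC5 reads the first residues of a nascent tubulin chain and the mRNA is then degraded.

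The start of the coding sequence is shown because this feedback acts there. In the annotation, Tuba1a, Tuba1b and Tuba1c began with the same 12 bases and Tuba4a differed from them within the second codon, while the beta genes printed here ended this stretch with another codon (Tubb6 is not shown). Within the alpha genes, and within the beta genes printed, the base differences leave the encoded residues the same. The 4 codons are printed 5′ to 3′ in capitals throughout, as all of them belong to the signal.
Tuba1a, Tuba1b and Tuba1c: ATGCGTGAGTGC
Tuba4a: ATGCGCGAGTGC
Tubb2a: ATGCGCGAGATC
Tubb2b: ATGCGAGAGATC
Tubb3 and Tubb4b: ATGAGGGAGATC
Tubb5: ATGAGGGAAATC

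The last 20 codons and the stop codon of Tuba4a and of 5 beta genes follow, because the tail is where isotypes differ most. All are GRCm39 genomic stretches of 63 bases inside the final coding exon, printed 5′ to 3′ on the gene's own strand, with glutamate and aspartate codons in capitals. The stretch of Tuba4a lies at chr1:75192266-75192328 on the minus strand, that of Tubb5 at chr17:36145874-36145936 on the minus strand and that of Tubb2a at chr13:34258451-34258513 on the minus strand.
Tuba4a: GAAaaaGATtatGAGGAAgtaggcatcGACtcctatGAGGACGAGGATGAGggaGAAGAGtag
Tubb2a: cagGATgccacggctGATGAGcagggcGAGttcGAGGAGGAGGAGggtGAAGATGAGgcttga
Tubb2b: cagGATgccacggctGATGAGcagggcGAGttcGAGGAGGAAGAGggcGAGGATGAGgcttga
Tubb3: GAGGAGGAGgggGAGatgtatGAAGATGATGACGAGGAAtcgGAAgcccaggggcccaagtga
Tubb4b: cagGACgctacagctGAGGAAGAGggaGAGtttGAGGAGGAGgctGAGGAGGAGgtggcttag
Tubb5: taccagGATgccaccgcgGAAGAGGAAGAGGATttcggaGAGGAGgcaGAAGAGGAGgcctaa

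Tuba4a ended in the glutamate codon GAG, so its chain lacks the final tyrosine that tubulin tyrosine ligase adds back to other alpha chains after its removal. Tubb2a and Tubb2b differed at 3 of the 63 bases, and none of these changes the encoded residue, so both genes encode the same tail over this stretch.

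Several members are close copies and neighbours, which bears on how reads were shared between them. Tuba1a (chr15:98847714-98851589, minus strand) and Tuba1b (chr15:98827738-98832493, minus strand) lie 15220 bases apart, and Tuba1c (chr15:98927748-98936266, plus strand) lies 76158 bases from Tuba1a. Their coding sequences were 98.3% identical for Tuba1a and Tuba1b, 97.9% for Tuba1b and Tuba1c and 97.1% for Tuba1a and Tuba1c. Of all 75-base windows in the Tuba1b coding sequence, 69.6% occurred without a mismatch in Tuba1c. Tubb2a (chr13:34257549-34261998, minus strand) and Tubb2b (chr13:34307245-34315143, minus strand) lie 45246 bases apart and were 96.5% identical. The split of counts within these sets was estimated by the study's quantification tool and is uncertain, while summed counts over a set do not depend on it. Tuba4a was at most 85.2% identical to another alpha member and Tubb5 at most 84.6% to another beta member, and neither shared a 75-base window with any member.

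Levels between genes were compared as TPM, a share of all transcripts after division by transcript length. In the primary cultures the most abundant member was Tubb5 (also called Tubb), the main beta isotype of dividing and non-neuronal cells, at 199 ± 25.2 TPM (SD, n = 6). Tubb2a followed at 183 ± 19.5 TPM, and Tubb5 exceeded it in 4 of the 6 cultures, so their order was not settled. Tuba4a (105 ± 13.5 TPM), Tubb4b (103 ± 17.3 TPM), Tuba1b (94.5 ± 16.5 TPM) and Tuba1c (94.1 ± 15.6 TPM) formed a group whose ranges overlapped. Tuba1b and Tuba1c each exceeded the other in 3 of the 6 cultures.

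Below that group came Tuba1a at 49.9 ± 8.30 TPM and Tubb2b at 41.2 ± 6.26 TPM, both best known from developing neurons, and their ranges overlapped too. Tubb6, a beta isotype with broad low expression, stood apart at 9.73 ± 1.57 TPM. Tubb3, the neuronal beta isotype, was lowest at 0.423 ± 0.299 TPM and rested on 3 to 26 counts per primary library. The 10 members together took 0.0721% to 0.0989% of all TPM in the primary cultures.

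**Figure D1:**
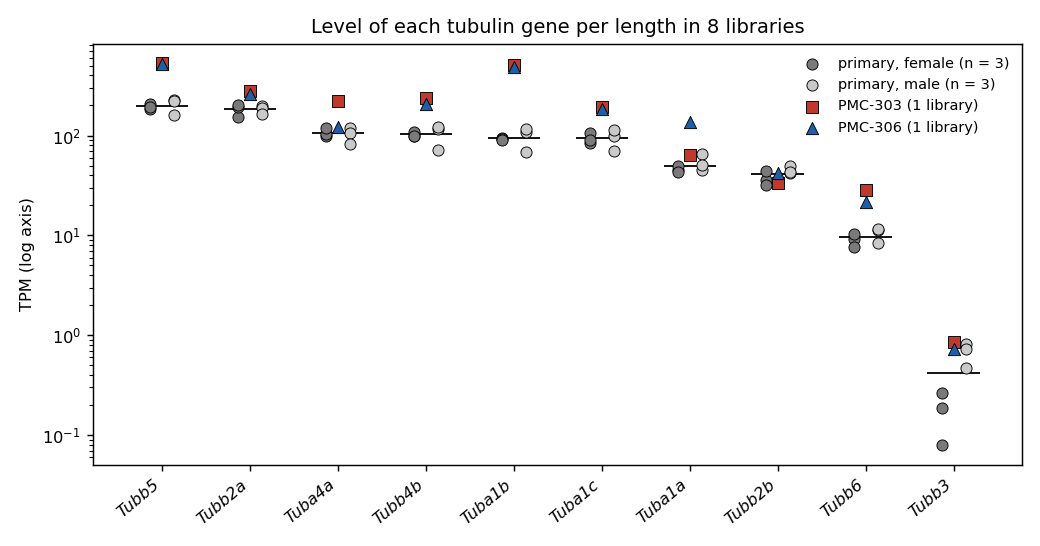
TPM (log axis) of each tubulin gene in the 6 primary cultures (circles, horizontal bar at their mean), PMC-303 (square) and PMC-306 (triangle), ordered by the primary mean. Tuba1b is at 509 and 485 TPM in the lines and between 68.2 and 115 TPM in the primary cultures, while the lines lie within the primary range for Tubb2b.

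In the lines the order began with Tubb5, at 531 TPM in PMC-303 and 519 TPM in PMC-306, and Tuba1b came next at 509 and 485 TPM. Tuba1b thus moved from place 5 by primary mean to place 2 in each line. Both lines then listed Tubb2a (278 and 259 TPM) and Tubb4b (239 and 209 TPM). The last 3 places, Tubb2b, Tubb6 and Tubb3, were in the same order as in the primary cultures. The places between were filled differently: Tuba4a preceded Tuba1c and Tuba1a in PMC-303 (223, 194 and 64.2 TPM) and followed them in PMC-306 (123, 183 and 135 TPM).

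Differences of a gene between libraries were taken from CPM, the count relative to the scaled library total (TPM and CPM both set that total to 1000000), with 0.1 CPM added before the logarithm. With both lines against the 6 primary cultures, 9 of the 10 members had a positive log2 fold, with a median of 0.90 over the members and −0.01 over all 14529 genes tested. In the fit with limma, 6 members passed a Benjamini-Hochberg adjusted p of 0.05 in the higher direction and 0 in the lower, beside 18.3% of all tested genes higher and 15.5% lower. Both lines lay above all 6 primary cultures for 6 members and below all 6 for 0, against 23% and 20.1% of tested genes. As the members were selected on this contrast, nothing is read from these counts.

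Tuba1b, a ubiquitous alpha tubulin gene, had the greatest difference among the members. It was at 732 CPM in the PMC-303 library and 658 CPM in the PMC-306 library, against a lowest, median and highest primary value of 127, 141 and 164 CPM. The lines were far above every primary culture, with no overlap. The fold was 5.10 for PMC-303 and 4.58 for PMC-306 over the primary mean, whereas single primary cultures lay between 0.868 and 1.18 times the mean of the other 5. The fitted log2 fold was 2.28 ± 0.117 (SE). No alternative run varied the split of reads between Tuba1b and its near copies Tuba1a and Tuba1c, and the fold of their summed counts was not computed.

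Tubb5 (chr17:36144809-36149198, minus strand), the most abundant beta member, differed by about as much as Tubb6, and their order was not settled. Its level was 1180 CPM in the PMC-303 library and 1100 CPM in the PMC-306 library, and the primary cultures ran from 424 over a median of 470 to 512 CPM. The groups did not overlap, the log2 fold was 1.28 ± 0.0956 (SE), and single primary cultures lay between 0.887 and 1.11 times the mean of the rest.

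Tubb4b (chr2:25112170-25114714, minus strand), a beta isotype found in many tissues and in cilia, stood at 314 CPM in the PMC-303 library and 263 CPM in the PMC-306 library. Primary values were 126, 146 and 161 CPM at the lowest, median and highest, so the groups were again apart, with a log2 fold of 1.00 ± 0.117 (SE). Tuba1c, the neighbour of Tuba1b, was at 306 and 263 CPM in the lines and at 142, 154 and 183 CPM in the primary cultures (log2 fold 0.84 ± 0.116). Its groups did not overlap either, but the fold of 1.79 was well under the 4.86 of Tuba1b.

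Tubb2a had the smallest difference among the members whose groups were apart. PMC-303 had 375 CPM, PMC-306 had 337 CPM and the primary cultures had 227, 273 and 295 CPM at the lowest, median and highest (log2 fold 0.41 ± 0.101). Its neighbour Tubb2b was at 63.0 CPM in the PMC-303 library and 74.5 CPM in the PMC-306 library, and the primary cultures ran from 63.1 over 82.7 to 109 CPM. PMC-303 was just under the lowest primary culture and PMC-306 lay inside the primary range (log2 fold −0.28 ± 0.187). Tubb2b was the only member with a negative log2 fold, and this held under every alternative run, with values from −0.46 to −0.09. None of the alternatives varied the split of reads between Tubb2b and Tubb2a, which are 96.5% identical.

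Tubb6 (chr18:67523585-67536773, plus strand) was at 41.8 CPM in the PMC-303 library and 30.3 CPM in the PMC-306 library. The primary cultures had 11.2, 16.1 and 17.3 CPM at the lowest, median and highest, all under both lines, with a log2 fold of 1.23 ± 0.187 (SE). Tubb3 was at 1.36 and 1.13 CPM in the lines, or 33 and 23 counts. Female cultures had 0.132 to 0.422 CPM and male cultures 0.997 to 1.33 CPM, so the lines overlapped the male cultures, and the log2 fold of 0.97 had an SE of 0.699. Without the female cultures it was 0.09.

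**Figure D2:**
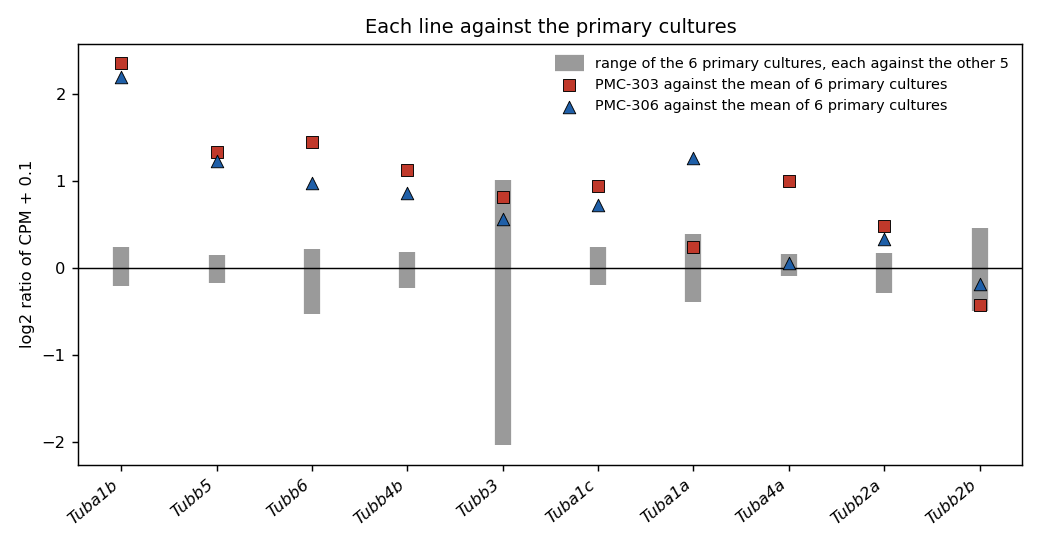
Log2 ratio of CPM + 0.1 for each member in PMC-303 (squares) and PMC-306 (triangles) against the mean of the 6 primary cultures, with grey bars for the range of each primary culture against the mean of the other 5. Tuba1b, Tubb5, Tubb6, Tubb4b, Tuba1c and Tubb2a lie above the bar in both lines, Tuba1a only in PMC-306 and Tuba4a only in PMC-303.

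The lines differed from each other most in Tuba1a and Tuba4a (the latter at chr1:75189219-75196566, minus strand). Tuba1a was at 98.1 CPM in PMC-303, inside the primary range of 66.0 to 104 CPM (median 77.5), and at 200 CPM in PMC-306, above it. Tuba4a was at 230 CPM in PMC-303, above the primary range of 109 to 126 CPM (median 113), and at 120 CPM in PMC-306, inside it. Each gene was thus outside the primary range in a different line, with a PMC-306 to PMC-303 ratio of 2.03 for Tuba1a and 0.521 for Tuba4a. For the other 8 members this ratio was between 0.726 and 1.18. The coding sequence of Tuba1a is 98.3% identical to Tuba1b and 97.1% to Tuba1c, so its estimate depends on how reads were split. Tuba1b and Tuba1c were lower in PMC-306 (658 and 263 CPM) than in PMC-303 (732 and 306 CPM). Whether the split of reads had a part in the Tuba1a difference was not tested.

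With 1 library for each line, no difference between the lines could be tested. The joint log2 folds, 0.77 ± 0.271 (SE) for Tuba1a and 0.53 ± 0.199 for Tuba4a, rest on the library that is high. For Tuba1a the value was 1.29 without PMC-303 and 0.26 without PMC-306. For Tuba4a it was 0.07 without PMC-303 and 1.00 without PMC-306. The macrophage marker list also differed between the lines: its summed level was 427 CPM for PMC-306, 2.43 CPM for PMC-303 and 5.78 to 64.6 CPM in the primary cultures. Of its 8 genes, Adgre1 (F4/80) alone had 426 CPM in PMC-306, Lyz2 had 1.13 CPM there and 1.18 to 18 CPM in the primary cultures, C1qb and Marco were at 0 in every library, and C1qa, C1qc, Csf1r and Cd14 were at or below 0.255 CPM. Their part in the Tuba1a difference was not tested.

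The transcript table assigned Tuba4a to 8 transcripts, the most of any member. Tuba4a-201 held 32.2% to 37.9% of its counts in the primary cultures, 36.6% in PMC-303 and 35.0% in PMC-306, and Tuba4a-206 held 26.4% to 32.3%, 33.0% and 32.4%. The makeup of Tuba4a was thus close in both lines although its level differed. Tuba4a-205, an annotated retained-intron transcript, held 16.7% to 19.0% in the primary cultures, 15.8% in PMC-303 and 16.9% in PMC-306. The other members were carried almost wholly by a single protein-coding transcript: the lowest share of that transcript was 92.9%, for Tuba1c in PMC-306.

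Within the alpha members, the share of each isotype was computed from summed TPM. Tuba1b made up 51.4% of alpha TPM in PMC-303 and 52.4% in PMC-306, against 27.4% ± 1.8 (SD, n = 6) and a range of 25.1% to 29.2% in the primary cultures. The shares of Tuba1a, Tuba1b and Tuba1c depend on how reads were split between them. The shares of Tuba1c and Tuba4a were smaller in the lines although neither gene had a lower level there. Tuba1c made up 19.6% and 19.8% in the lines and 25.9% to 30.2% in the primary cultures. Tuba4a made up 22.5% in PMC-303, 13.2% in PMC-306 and 26.4% to 34.7% in the primary cultures. Tuba1a had 6.5% in PMC-303, under the primary range of 12.2% to 18.7%, and 14.6% in PMC-306, inside it.

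Among the beta members, 4 had shares outside the primary range in both lines, namely Tubb5, Tubb2a, Tubb2b and Tubb6. Tubb5 made up 47.8% in PMC-303 and 49.4% in PMC-306, against 35.5% to 38.1% in the primary cultures. Tubb2a made up 25% and 24.6% in the lines against 32% to 36.8%, and Tubb2b 3.0% and 4.0% against 5.8% to 9.7%. Tubb4b had 21.5% in PMC-303, above the primary range of 16.1% to 20.6%, and 19.9% in PMC-306, inside it. Tubb6 made up 2.6% and 2.1% against 1.4% to 2.0%, and Tubb3 about 0.1% in both lines.

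**Figure D3:**
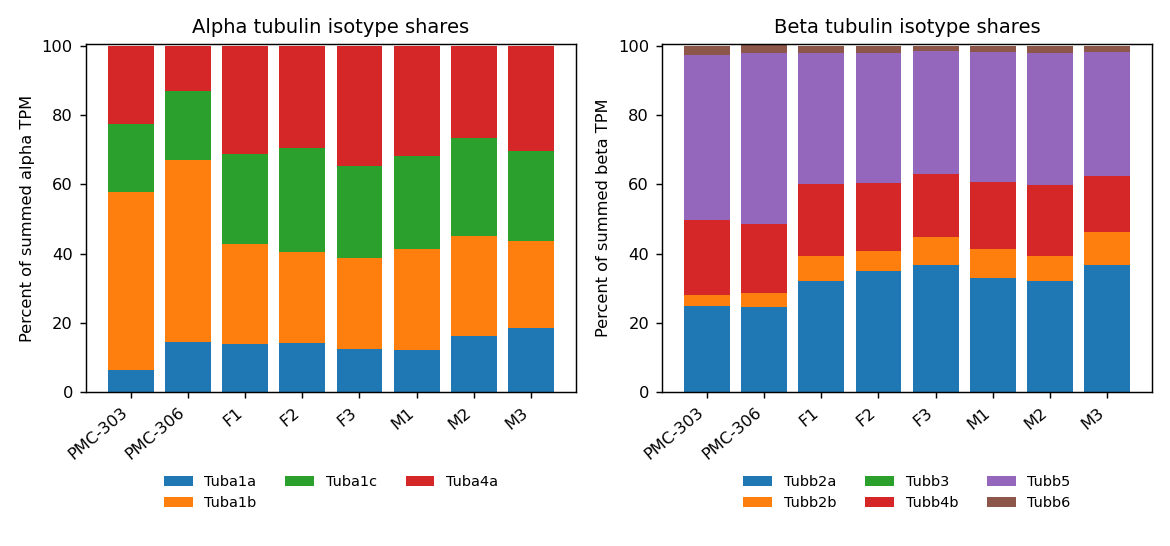
Percent of the summed TPM of the alpha members (left) and beta members (right) taken by each isotype in PMC-303, PMC-306, the 3 female (F1 to F3) and the 3 male (M1 to M3) primary cultures. Tuba1b fills 51.4% and 52.4% of the alpha bars in the lines and at most 29.2% in the primary cultures.

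Summed alpha TPM was 990 in PMC-303 and 925 in PMC-306, against 343 ± 43.9 (SD, n = 6) in the primary cultures. Summed beta TPM was 1110 and 1050, against 536 ± 59.9. The alpha sum was 2.88 and 2.69 times the primary mean and the beta sum 2.07 and 1.96 times, so the ratio of alpha to beta mRNA was higher in the lines. This ratio was 0.890 in PMC-303 and 0.880 in PMC-306, above the primary range of 0.606 to 0.682. With Tuba8 added to the alpha sum, the ratio was 0.961 and 0.953 in the lines and 0.680 to 0.759 in the primary cultures. As TPM divides by the length of each gene, these sums depend in part on how reads were split between near-identical members.

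The sex of the donor was not used in selecting the genes, so here the members were tested, with limma on the 3 female against the 3 male primary cultures. All 10 members had a lower mean in female cultures, and 0 passed the adjusted threshold, beside 0.0438% of the 13710 genes tested. Before adjustment, Tubb3 and Tubb2b had a p under 0.05, as did 3.4% of all tested genes. Female cultures held the lowest value of 8 members, and male cultures the highest value of all 10. Female replicate 3 alone held the lowest value of 5 members. The members share their scaling, and 36 of their 45 pairs had a positive correlation over the primary cultures. The share of all genes with such directions was not computed, so nothing is read from these counts of direction.

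Tubb3 had the greatest difference, with 0.322, 0.132 and 0.422 CPM in female replicates 1 to 3 and 1.33, 1.18 and 0.997 CPM in male replicates 1 to 3. The sexes did not overlap, and the female minus male log2 fold was −1.76 ± 0.407 (SE). Counts were 3 to 8 in the female and 19 to 26 in the male libraries, so Tubb3 reached the filter on low counts only through the male group and its p is not read. With no filter its limma adjusted p was 0.829. Tubb2b had 72.9, 63.1 and 83.8 CPM in female replicates 1 to 3 and 95.5, 81.6 and 109 CPM in male replicates 1 to 3. Its ranges overlapped, and its log2 fold was −0.37 ± 0.139 (limma adjusted p = 0.9995, unadjusted p under 0.05). The log2 folds of the remaining 8 members ran from −0.31 for Tuba1a to −0.03 for Tuba4a.

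The neuron marker list was checked beside Tubb3 and Tubb2b. Of its 8 genes only Syp, a vesicle protein, passed the filter on low counts, Nefl was at 0 in all libraries, and each of the others stayed at or below 0.196 CPM. Its summed level was 3.83 CPM in PMC-303, 5.21 CPM in PMC-306 and 6.19 to 11.9 CPM in the primary cultures. Syp fell in the lines (log2 fold −1.05 ± 0.237, limma adjusted p = 0.00998), a call that was lost without PMC-303 (adjusted p = 0.0804), with the deposited TPM (0.0528) and against female cultures alone (0.0915).

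Across the 6 primary cultures, members varied together to different degrees, given here as a description over 6 libraries that share their scaling. Pearson's r of log2 CPM was 0.91 for Tuba1b and Tubb4b, the highest of the 45 pairs, followed by 0.85 for Tubb5 and Tubb6. It was 0.83 for Tubb2b and Tubb3 and −0.57 for Tuba1a and Tuba4a, the lowest. The median over all pairs was 0.32. Over all 8 libraries, the 5 tested genes whose levels were most like the summed CPM of the members were Atp5g3, Bub3, Rpf2, Srsf7 and Cask, with r from 0.995 to 0.997. Bub3, a spindle checkpoint protein, was at 144 CPM in PMC-303, 135 CPM in PMC-306 and 74.9 to 82.3 CPM in the primary cultures. Over the 6 primary cultures alone its r was 0.79, the lowest of these 5 genes, and the highest was 0.96 for Rpf2. The r over 8 libraries includes the difference between lines and primary cultures that was known when the members were selected.

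Tubulin genes outside the selected set were tested in the same fit of lines against primary cultures, although this list too was drawn up with earlier results of these data known. Of 10 such genes, 5 passed the filter on low counts, and 4 of these passed the test as higher and 0 as lower. Over all tested genes, 18.3% passed as higher and 15.5% as lower. Tubb4a, among the 4, is not read as a rise, because it reached the filter only through the lines. Tuba8 (chr6:121187638-121203818, plus strand), a divergent alpha isotype, rose from 73.7 to 108 CPM in the primary cultures to 154 CPM in the PMC-303 library and 145 CPM in the PMC-306 library (log2 fold 0.72 ± 0.131, limma adjusted p = 0.00376). At 33.1 to 52.3 TPM in the primary cultures its range overlapped that of Tuba1a (42.9 to 65.7 TPM). Tubg1, the gamma tubulin of nucleating complexes, rose from 8.89 ± 0.573 CPM (SD, n = 6 cultures) to 22.9 and 18.6 CPM. Its log2 fold was 1.21 ± 0.123 (limma adjusted p = 0.00024).

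Tube1, the epsilon tubulin of centrioles, rose from 2.33 to 2.96 CPM to 10.7 and 9.62 CPM (log2 fold 1.92 ± 0.163, limma adjusted p = 0.000119), the greatest log2 fold on the list. Tubd1, the delta tubulin of centrioles, was at 12 and 10.9 CPM in the lines and 10.1 to 13.3 CPM in the primary cultures (log2 fold 0.05, limma adjusted p = 0.82). Tubb4a rested on 15 and 11 counts in the lines and 0 to 5 in the primary libraries. Its log2 fold of 1.64 ± 0.505 (limma adjusted p = 0.0361) did not pass when no filter was applied (adjusted p = 0.0527), nor against female (0.112) or male (0.0556) cultures alone, nor without PMC-303 (0.13), PMC-306 (0.11), female replicate 2 (0.0541), male replicate 1 (0.062) or male replicate 2 (0.0608). Tubg2 had 12 counts at most. Tuba3a, Tuba3b, Tubal3 and Tubb1, the platelet isotype, had 0 counts in every library, where 3 counts would be 0.123 to 0.187 CPM.

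New tubulin chains are folded by prefoldin and the ring-shaped chaperonin CCT and are then joined into dimers by the cofactors TBCA to TBCE. Of 21 folding genes, all tested, 11 rose, 1 fell and 9 did not pass the test, with a median log2 fold of 0.40. Over all tested genes, 18.3% were called higher and 15.5% lower, the background for this list and those that follow. These lists too were drawn up with earlier results of these data known. All 8 subunits of CCT rose, led by Tcp1 (169 ± 12.4 CPM in the primary cultures, SD, 312 CPM in the PMC-303 library and 290 CPM in the PMC-306 library, log2 fold 0.84 ± 0.0848, limma adjusted p = 0.000238). Without PMC-303, 6 of the 8 passed, and against the female cultures alone 3 did. Among prefoldin genes, Vbp1 rose (log2 fold 0.72 ± 0.0949, adjusted p = 0.000799), as did Pfdn6 (log2 fold 0.64 ± 0.13, adjusted p = 0.00628), whose call was lost without PMC-303 (adjusted p = 0.0504). Tbca, Tbcb, Tbcc, Tbcd and Tbce had log2 folds from −0.10 to 0.26 and did not pass. Arl2, a small GTPase that works with the cofactors, fell (log2 fold −0.56 ± 0.128, adjusted p = 0.0101), a call lost without PMC-306 (adjusted p = 0.0735), with the deposited TPM (0.067), and against female (0.102) or male (0.0647) cultures alone.

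Of the 4 genes of the tubulin mRNA feedback, Cnot11, a deadenylase subunit, rose (log2 fold 0.32 ± 0.0704, limma adjusted p = 0.0086), a call lost against female (0.0959) or male (0.0667) cultures alone. Ttc5, the factor that reads the first residues, had a log2 fold of −0.07 (adjusted p = 0.655), and neither Scaper nor Cnot1 passed the test. Of 22 genes for enzymes that modify tubulin, 21 were found by name, 15 were tested, 1 rose and 3 fell. The median log2 fold was −0.02, and the shares over all tested genes were 18.3% higher and 15.5% lower. Tpgs2, a polyglutamylase subunit, rose (log2 fold 0.55 ± 0.11, adjusted p = 0.00593), a call lost against male cultures alone (0.0526). Sirt2, a tubulin deacetylase, fell from 63.8 ± 6.20 CPM (SD) to 37.3 and 37.1 CPM (log2 fold −0.77 ± 0.10, adjusted p = 0.000747).

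Ttll1, a polyglutamylase, and Atat1, the alpha tubulin acetyltransferase, passed as lower with limma adjusted p of 0.0311 and 0.0295, but neither call was stable. The call of Ttll1 was lost without PMC-306 (0.207), female replicate 1 (0.0612) or 2 (0.0536), or male replicate 1 (0.0542), 2 (0.0522) or 3 (0.0571). It was also lost with total counts (0.0638), no filter (0.0604), the deposited TPM (0.242), and female (0.173) or male (0.119) cultures alone. That of Atat1 was lost without PMC-303 (0.155), PMC-306 (0.0619), female replicate 1 (0.0598) or 3 (0.0515), or male replicate 3 (0.0545), and with total counts (0.0906), no filter (0.0625), or female (0.108) or male (0.178) cultures alone. With the deposited TPM the log2 fold of Atat1 was −0.16 in place of −0.42 (adjusted p = 0.603). Ttl, the tubulin tyrosine ligase, had a log2 fold of 0.42 (adjusted p = 0.176).

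Microtubules start from gamma tubulin ring complexes and, in the spindle, from the augmin complex of HAUS subunits. Of 18 nucleation genes, all tested, 12 rose and 0 fell, beside 18.3% and 15.5% of all tested genes, with a median log2 fold of 0.63. Haus4 (log2 fold 1.65 ± 0.15, limma adjusted p = 0.000155), Haus7 (1.32 ± 0.207, adjusted p = 0.00184) and Haus1 (1.07 ± 0.145, adjusted p = 0.000886) led the list. Of 31 genes for microtubule dynamics and stability, 24 were tested, 6 rose and 1 fell, with a median log2 fold of 0.13. Against the same shares over all tested genes, nothing is read from these counts. Without PMC-306, 10 rose.

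Kif2c, a microtubule depolymerase of the kinetochore, was at 3.76 ± 1.5 CPM in the primary cultures (SD, n = 6), 52.7 CPM in the PMC-303 library and 53.6 CPM in the PMC-306 library, and its log2 fold was 3.89 ± 0.401 (limma adjusted p = 0.000251). Fignl1, a member of the fidgetin family, rose with a log2 fold of 3.14 ± 0.341 (adjusted p = 0.000306). Stmn1, which binds free dimers, rose from 23.6 ± 9.96 CPM (SD) to 175 and 143 CPM (log2 fold 2.88 ± 0.477, adjusted p = 0.00244). Mapre3, a plus-end binding protein, fell (log2 fold −1.34 ± 0.246, adjusted p = 0.00392), a call lost against female (0.0541) or male (0.0514) cultures alone.

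**Figure D4:**
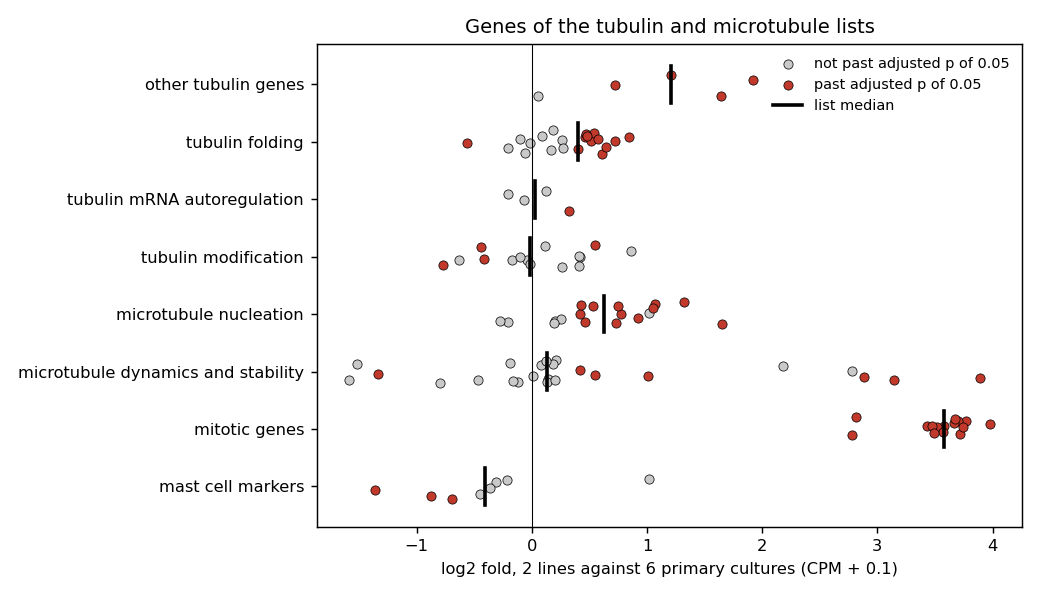
Log2 fold of both lines against the 6 primary cultures (CPM + 0.1) for each tested gene of 8 lists, red where the limma adjusted p over all genes was under 0.05 and grey elsewhere, with a black bar at the list median. The mitotic genes sit furthest to the right (median 3.58), and the folding and nucleation lists have medians of 0.40 and 0.63.

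A list of mitotic genes was compared between the lines and the primary cultures in the same fit. The list was drawn up with earlier results of these data known. The paper also reports cell cycle and mitosis as leading terms among genes changed between primary PMCs and PMC-306. The calls are therefore a description. All 15 genes of that list rose, beside 18.3% of all tested genes, with a median log2 fold of 3.58. Their summed level was 3500 CPM in PMC-303, 2950 CPM in PMC-306 and 134 to 373 CPM in the primary cultures. Ccna2 (log2 fold 3.98 ± 0.472, limma adjusted p = 0.000478), Mki67 (3.77 ± 0.48, adjusted p = 0.000667) and Kif11, a spindle motor (3.74 ± 0.364, adjusted p = 0.000202), led it. Their part in the tubulin differences was not tested.

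The labelled cell type was checked by 8 mast cell markers, all of which were measured in every library. Over all tested genes, 18.3% were called higher and 15.5% lower. None rose and 3 fell in the lines: Fcer1a (log2 fold −1.36 ± 0.237, limma adjusted p = 0.0031), Kit (−0.88 ± 0.118, adjusted p = 0.000886) and Il1rl1 (−0.69 ± 0.164, adjusted p = 0.0123). The call of Il1rl1 was lost without PMC-303 (adjusted p = 0.0705) or PMC-306 (0.0715), with the deposited TPM (0.0866) and against female (0.098) or male (0.0695) cultures alone, and that of Fcer1a against female cultures alone (0.0569). Kit remained at 1950 and 2050 CPM in the lines. The summed fibroblast and mesothelial list stayed at or below 0.442 CPM and the lymphocyte list at or below 0.262 CPM in all libraries. The 7 platelet and megakaryocyte markers summed to 1320 and 1110 CPM in the lines and 1440 to 1980 CPM in the primary cultures, of which Itga2b, which mast cells also express, made up nearly all. Pf4 was at or below 0.0878 CPM, and Ppbp was at 0.

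Sequence around the transcription starts was searched on both strands, 250 bases before to 50 after the start of each gene's canonical transcript in GRCm39. For Tuba4a this was Tuba4a-202, with 4.16% to 8.11% of its counts in the primary cultures, 5.74% in PMC-303 and 6.15% in PMC-306. The starts of its other transcripts were not searched. CCAAT, the box bound by NF-Y in many cell cycle promoters, was present in 7 of the 10 member windows and in 39.9% of 21770 protein-coding promoters. GGGCGG, a GC box, was present in 6 members and in 42.5% of promoters. TTTGAA, a core of the cell cycle homology region, was present in Tubb4b alone and in 17.1% of promoters, and TTTAAA in Tuba1a alone and in 13.1%. No matches overlapped each other in the member windows, and a match is a description of the sequence only.

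The windows before the starts of Tuba1b and Tubb4b are shown as an example of members whose levels moved together in the primary cultures, with CCAAT or its reverse complement in capitals. Tubb4b had 5 CCAAT matches before its start and Tuba1b had 1, on the reverse strand 159 to 155 bases upstream. The Tuba1b stretch is chr15:98832494-98832743 and the Tubb4b stretch chr2:25114715-25114964, both on the minus strand of GRCm39 and printed 5′ to 3′.
Tuba1b: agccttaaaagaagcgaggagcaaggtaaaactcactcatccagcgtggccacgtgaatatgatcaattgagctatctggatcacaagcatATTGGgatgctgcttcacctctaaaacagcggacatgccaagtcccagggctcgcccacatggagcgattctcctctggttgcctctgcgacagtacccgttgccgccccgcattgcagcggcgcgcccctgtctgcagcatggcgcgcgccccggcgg
Tubb4b: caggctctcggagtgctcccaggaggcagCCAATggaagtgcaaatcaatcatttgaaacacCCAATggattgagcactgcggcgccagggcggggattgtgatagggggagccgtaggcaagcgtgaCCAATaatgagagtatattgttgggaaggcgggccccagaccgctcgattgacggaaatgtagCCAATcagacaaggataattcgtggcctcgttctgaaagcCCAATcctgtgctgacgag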

How the data were processed

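Total RNA libraries (TruSeq Stranded Total RNA) were read on an Illumina NextSeq sequencer. Per the submitters' processing notes and the methods, the authors used Trim Galore 0.6.7, STAR 2.7.9a on GRCm39 and Salmon 1.5.2. The deposited tables hold estimated counts per gene and per transcript and TPM per gene, with no other normalization by the authors. A spreadsheet had rewritten 3.37% of gene count cells (45 of the 80 cells of the members) as text or with a lost decimal point. These were restored, and 99.7% of gene counts then lay within 0.2 of the sum of their transcripts. Because of the rewritten count cells, count models were not used. Of the gene TPM cells, 20.8% were also rewritten and were restored. The decimal point was moved in 5307 TPM cells, and in 2 TPM cells of the members, so its place there is inferred. Each restored library then summed to between 1000000 and 1000422 TPM. All TPM levels, shares and ratios, and the alternative called deposited TPM, use these restored values. Counts were scaled by TMM (trims of 0.3 and 0.05) to CPM, genes reaching 10 counts at the median depth in as many libraries as the smaller group and 15 in all were kept, and log2(CPM + 0.1) was tested with limma 3.58.1 (R 4.3.3, trended prior), adjusted by Benjamini-Hochberg at 0.05. Fold changes on this scale understate the change of low genes. The 2 lines served as replicates of each other, and nothing says whether each culture came from a single mouse.

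The members and lists were chosen with earlier results of these data known. All members, every other tubulin gene, and up to 3 genes each way per list by log2 fold are named, and genes named beyond that were chosen after their values were seen. In simulated data for lines against primary cultures (14290 genes), 93% of 2-fold and 100% of 4-fold changes were recovered with 14 false calls. For female against male (13763 genes), 88% and 100% were recovered with 5. The simulation gave every gene the same dispersion, changed only better expressed genes and gave both lines the same mean. It therefore does not cover low genes, genes that vary more, or differences between the lines. Cultures of a group differed beyond sampling noise (chi-square per degree of freedom of 23.8 to 68.0). Floors of 3 counts cover counting error only. Positions are from GENCODE M39 on GRCm39, the build of the files, matched by gene name. Transcripts were matched by identifier without version. Identities are from global alignments of coding sequences with Python 3. Protein sequences were not used here, and some items are not reported here. Alternatives covered scaling, pseudocount, filter, cultures used, single libraries left out, deposited TPM and a replicate block.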

Additional observations from a re-analysis of the deposited data

Results flagged for a closer look

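Tubb6 made up 1.4% of beta TPM in female replicate 3, the lowest of the 6 primary cultures, and 1.9% to 2.0% in the other 5. The gap to the nearest culture was 0.797 of the whole range, above Dixon's limit for 6 samples. Such a limit is passed by chance in about 1 in 20 groups. It was applied to the levels and shares of each of the 10 members, and to summed alpha TPM, summed beta TPM and their ratio. No other value passed it. Tubb6 was at 11.2 CPM in that culture.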

How the results depend on the processing

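Against the 3 female cultures alone, 2146 genes were called between lines and primary cultures, and against the 3 male cultures alone 3031, compared with 2665 higher and 2255 lower in the full fit. Both are fits with fewer samples. Total-count scaling gave 3406 higher and 1665 lower (67.2% higher against 54.2%) and the deposited TPM 2374 and 980 (70.8%), and these moved the median log2 fold of all genes from −0.01 to 0.10 and 0.13. The number of members past the threshold was 5 to 8 over all alternatives, none of them lower. Tuba1b, Tubb5, Tubb6, Tubb4b and Tuba1c passed in each, and Tubb2a did not with female cultures alone, with male cultures alone or without PMC-303. The log2 fold of Tuba1b stayed between 2.21 and 2.41 and that of Tubb5 between 1.21 and 1.41. No alternative varied the split of reads between near-identical members, so the range of Tuba1b does not cover it. Folding genes called higher numbered 5 against the female cultures alone and 13 with total counts, beside 11. The line minus primary difference in the share of Tubb3, −0.00402 percentage points of beta TPM, became 0.00752, 0.00521 and 0.00146 without male replicates 1, 2 and 3, and ran from −0.0167 to 0.00752 over all single cultures left out. No member passed between the sexes under any alternative. With the replicate block, 5 genes were called between the sexes and 0 members, beside 6 and 0. Same-numbered female and male cultures correlated at 0.405, −0.216 and 0.284 in their deviations, so the numbers were not taken to pair them. Depth limits Tubb3, Tubb4a and Tubg2.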
